A study of Mus musculus with 6 samples.

Results

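Zfp961, Ccdc124, Tmem59l, Nr2f6, Lpl, Gatad2a, Slc35e1, Ddx60 and Mfap3l are 9 genes that lie within 10 Mb of Fkbp8 on mouse chromosome 8. They were chosen by their measured signal, for differences among the 6 arrays of this study, out of 167 genes that have a spot on the array and lie in that stretch, Fkbp8 included. Because the arrays themselves chose them, their values are given as a description, without a test. The 9 genes have 11 spots among the 34967 transcript spots of the array, and all 11 were bright enough to be among the 21243 spots tested.

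The arrays measured RNA from the posterior part of embryos at embryonic day 9.5, cut off below the pit of the forelimb. Fkbp8 null embryos gave samples 6, 9 and 11, and wild-type embryos gave samples 7, 10 and 12. All 6 carried a mixed background of C57BL/6 and 129S5/SvEvBrd (B6;129S5), and no treatment is listed. The labels do not say whether a sample was a single embryo or a pool, how the null allele was made, or which litters the samples came from. The labels conflict on the tissue, with an anterior neural tube as the source and a posterior one as the tissue, and the dissection protocol describes the posterior part. All 10 listed markers of the posterior embryo, among them T, Cdx2, Tbx6 and Hoxb9, were bright enough to be tested, while Otx2 of the forebrain and midbrain was near background on all 6 arrays. Six3 of the forebrain was above background on 5 of them.

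Fkbp8 encodes an immunophilin anchored in membranes, which binds Bcl-2 and restrains hedgehog signalling in the mouse neural tube. Genes that lie close together on a chromosome are inherited together, so in a stock of mixed strains the animals that carry a given allele tend to carry the same strain's copy of the neighbouring genes. A copy from one strain can differ from the other in its expression, or in the bases that an array probe has to bind. In this design the loss of Fkbp8 and the strain of origin of its neighbours cannot be told apart, since no label gives the strain of the chromosome around the gene.

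In the gene order of the RefSeq annotation of GRCm38.p6, counted in protein-coding genes, 5 of the 9 genes lie on the side of lower coordinates. These are Tmem59l (5 genes from Fkbp8), Gatad2a (29), Lpl (51), Ddx60 (78) and Mfap3l (85). On the side of higher coordinates lie Ccdc124 (20 genes from Fkbp8), Nr2f6 (30), Zfp961 (59) and Slc35e1 (75).

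The promoters of 4 of these genes are shown, 250 bases before and 50 after the start of transcription, from RefSeq for GRCm38.p6. Fkbp8 is the targeted gene, Ccdc124 and Zfp961 had the largest differences among the wild-type samples of the genes that were brightest in sample 12, and Ddx60 is interferon-induced. Capitals mark matches, on either strand, to CCAAT, to the GC box GGGCGG, to the cyclic AMP response element TGACGTCA or to the interferon response element (GAAA, any 2 bases, then GAAACT), and all are written 5′ to 3′ on the gene's strand.
Fkbp8, chr8:70527493-70527792, plus strand: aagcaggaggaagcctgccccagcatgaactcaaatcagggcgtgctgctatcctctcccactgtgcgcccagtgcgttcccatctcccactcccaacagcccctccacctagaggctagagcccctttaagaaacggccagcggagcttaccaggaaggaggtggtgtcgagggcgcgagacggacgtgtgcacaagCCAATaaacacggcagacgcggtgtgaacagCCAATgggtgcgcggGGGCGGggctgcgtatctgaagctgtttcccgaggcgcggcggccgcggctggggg
Ccdc124, chr8:70873441-70873740, minus strand: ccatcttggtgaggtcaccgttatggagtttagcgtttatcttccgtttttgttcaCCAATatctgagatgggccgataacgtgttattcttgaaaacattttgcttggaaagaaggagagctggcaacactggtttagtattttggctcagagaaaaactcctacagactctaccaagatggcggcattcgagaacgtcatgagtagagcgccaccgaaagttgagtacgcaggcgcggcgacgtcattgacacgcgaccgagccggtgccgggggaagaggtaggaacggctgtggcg
Zfp961, chr8:71950816-71951115, plus strand: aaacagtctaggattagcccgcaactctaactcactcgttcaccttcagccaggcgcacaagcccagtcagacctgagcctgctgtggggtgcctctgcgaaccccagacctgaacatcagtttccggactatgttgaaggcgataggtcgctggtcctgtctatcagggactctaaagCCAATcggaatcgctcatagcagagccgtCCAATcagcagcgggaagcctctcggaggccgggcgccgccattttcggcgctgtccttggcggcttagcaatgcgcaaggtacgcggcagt
Ddx60, chr8:61927837-61928136, plus strand: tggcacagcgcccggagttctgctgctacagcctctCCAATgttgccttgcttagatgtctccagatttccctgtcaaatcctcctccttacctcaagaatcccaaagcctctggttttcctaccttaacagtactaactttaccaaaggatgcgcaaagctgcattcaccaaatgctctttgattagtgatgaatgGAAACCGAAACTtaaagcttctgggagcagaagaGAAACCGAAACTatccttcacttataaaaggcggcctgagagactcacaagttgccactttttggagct
The Fkbp8 promoter held 2 CCAAT matches and 1 GC box, that of Ccdc124 held 1 CCAAT and that of Zfp961 held 2. Of the 32851 mouse promoters of the same length, 37.4% held CCAAT and 35.7% the GC box. Ddx60 had 2 matches to the interferon response element, which 0.271% of promoters held. Lpl was named only. None of these matches is evidence of binding in these samples.

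Fkbp8 itself was near background in every null sample. Its background-subtracted intensity was 24.7, 28.8 and 35.7 in null samples 6, 9 and 11, against 123, 183 and 486 in wild-type samples 7, 10 and 12. The groups did not overlap, and wild-type sample 12 was the brightest. Mean normalized log2 signal was 6.32 ± 0.10 in null and 8.09 ± 0.53 in wild-type samples (SD, n = 3 each), so Fkbp8 was at least 3.33-fold lower in null tissue. The fitted log2 difference was -1.77 ± 0.23 (SE), and -2.89 when intensities were floored at 1 without an offset. The number of arrays limits the precision here and throughout, and any p-value reflects the spread among these samples alone, which may be technical. In whole tissue, fewer cells of a type and less RNA per cell cannot be told apart. The labels do not tell whether the Fkbp8 probe falls inside the part of the gene that the null allele lacks.

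Of the 9 flanking genes, 5 were high in 2 of the wild-type samples and not in the third. In Ccdc124, Zfp961, Nr2f6, Tmem59l and Slc35e1, wild-type sample 12 was highest, wild-type sample 10 came next, and wild-type sample 7 lay inside the range of the 3 null samples.

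Ccdc124 encodes a coiled-coil protein that is known from human cells to associate with ribosomes. Its intensity was 149, 262 and 253 in null samples 6, 9 and 11, against 171, 597 and 2134 in wild-type samples 7, 10 and 12. Samples 10 and 12 stood above the other 4, and sample 7 could not be separated from the null samples. On the normalized log2 scale wild-type sample 7 lay at -0.02 from the null mean, sample 10 at 1.34 and sample 12 at 2.68, the last of which is 6.39 times the null mean. Group means were 8.06 ± 0.14 in null and 9.40 ± 1.35 in wild-type samples (SD, n = 3 each). The fitted log2 difference was -1.33 ± 0.55 (SE), with -0.66 when wild-type sample 12 was left out and -2.02 when wild-type sample 7 was.

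Zfp961 is a zinc finger gene by name. Null samples 6, 9 and 11 gave intensities of 188, 325 and 313, against 215, 554 and 939 in wild-type samples 7, 10 and 12. The same pair of wild-type samples was high, and the widest gap in the ordered values, 0.89 on the log2 scale, fell between that pair and the other 4 arrays. Wild-type sample 7 was 0.01 above the null mean, sample 10 was 0.98 above it and sample 12 was 1.24 above it, all on the log2 scale. Mean log2 signal was 8.32 ± 0.12 in null and 9.06 ± 0.65 in wild-type samples (SD, n = 3 each). The log2 difference of -0.74 ± 0.28 (SE) became -0.49 when wild-type sample 12 was left out and -1.12 when wild-type sample 7 was.

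Nr2f6 encodes an orphan nuclear receptor of the COUP-TF family. Its intensity was 1827, 2907 and 2828 in null samples 6, 9 and 11, against 1993, 3164 and 5636 in wild-type samples 7, 10 and 12. After normalization, wild-type sample 12 was 0.92 above the null mean on the log2 scale, sample 10 was 0.40 above it and sample 7 was 0.03 above it. The group means were 11.29 ± 0.10 in null and 11.74 ± 0.44 in wild-type samples (SD, n = 3 each), and the ranges overlapped. The log2 difference was -0.45 ± 0.20 (SE), and -0.22 without wild-type sample 12.

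Tmem59l, a paralogue of Tmem59 that encodes a membrane protein enriched in brain, was the member nearest to Fkbp8. Its intensity was 77.8, 104 and 88.6 in null samples 6, 9 and 11, against 80.4, 127 and 201 in wild-type samples 7, 10 and 12. Again samples 10 and 12 were the 2 highest after normalization, at 0.39 and 0.52 above the null mean on the log2 scale, with sample 7 at 0.03. Mean log2 signal was 7.14 ± 0.06 in null and 7.45 ± 0.25 in wild-type samples (SD, n = 3 each). The log2 difference was -0.32 ± 0.14 (SE), -0.20 without wild-type sample 12 and -0.48 with the authors' value table.

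Slc35e1 belongs to the solute carrier family of nucleotide-sugar transporters. It was dim, with intensities of 50.2, 75.9 and 60.5 in null samples 6, 9 and 11, against 55.4, 83.6 and 147 in wild-type samples 7, 10 and 12. On the normalized log2 scale sample 12 was 0.55 above the null mean and sample 10 was 0.31 above it, while sample 7 equalled it to 2 decimals (0.00). Group means were 6.81 ± 0.08 in null and 7.10 ± 0.27 in wild-type samples (SD, n = 3 each). The log2 difference was -0.29 ± 0.14 (SE), with -0.15 without wild-type sample 12, -0.44 without wild-type sample 7, and -0.47 to -0.49 under the 3 settings that add no offset.

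**Figure D1:**
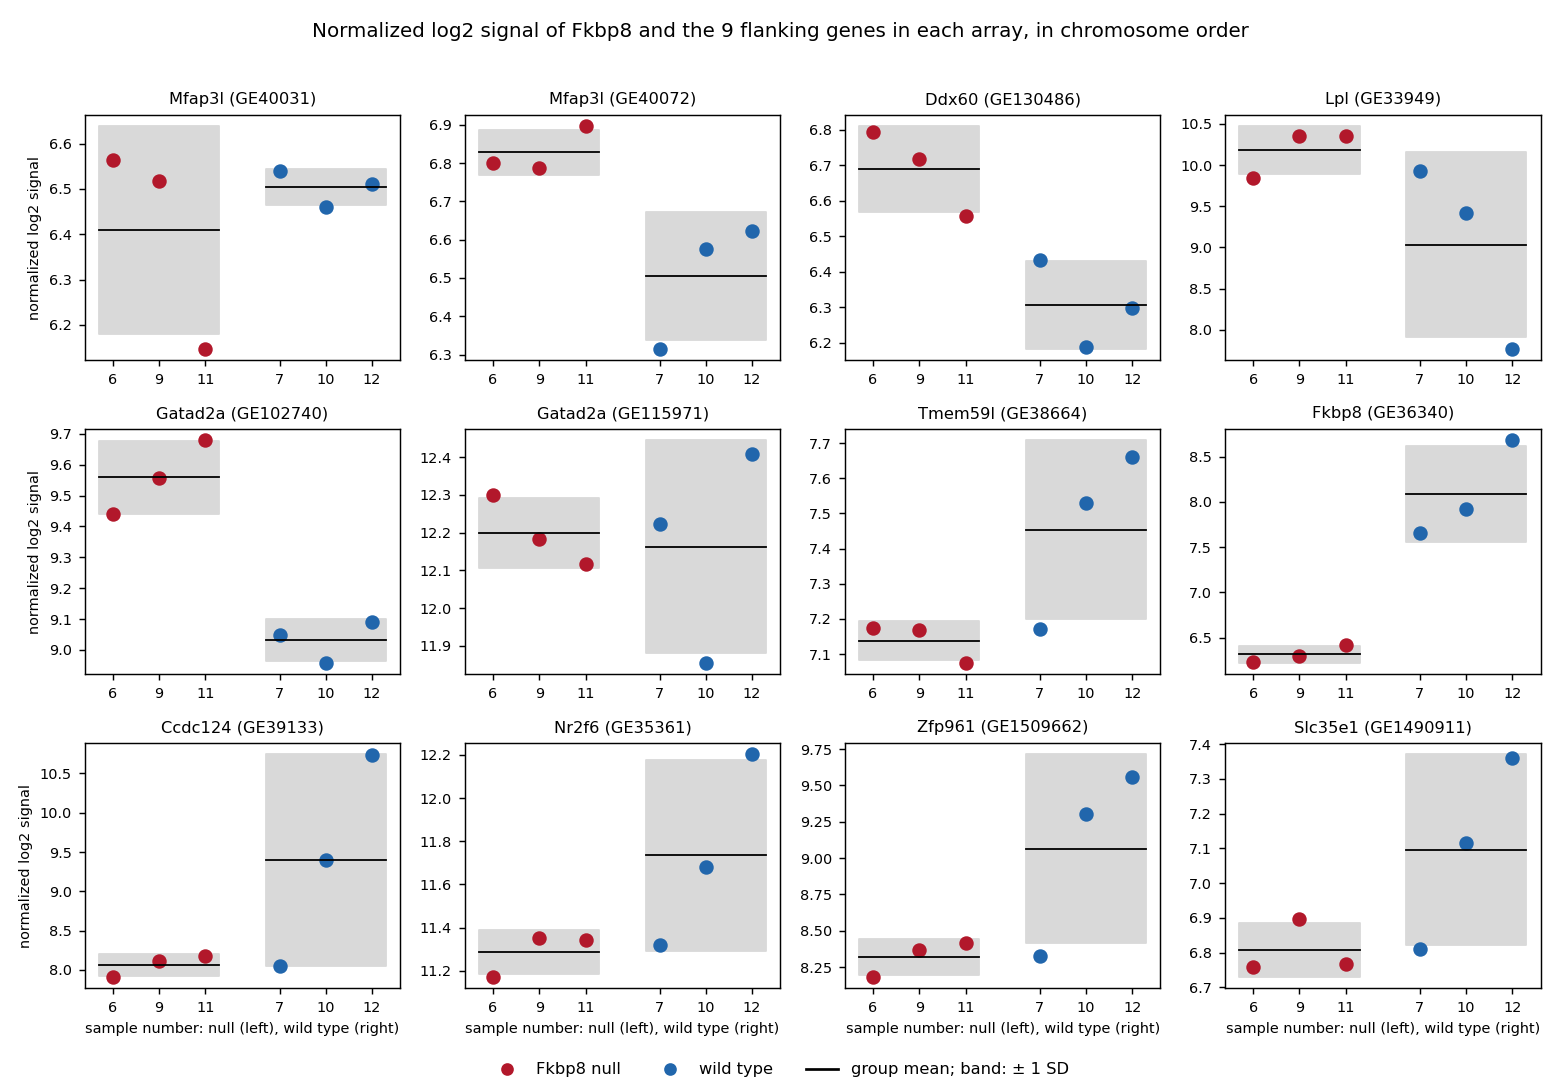
Normalized log2 signal of each probe of Fkbp8 and the 9 flanking genes (vertical axis) in null samples 6, 9 and 11 (red, left) and wild-type samples 7, 10 and 12 (blue, right), with the group mean as a line and 1 SD as a band. The vertical scale differs between panels. In Ccdc124, Nr2f6, Zfp961, Tmem59l and Slc35e1, samples 10 and 12 stand above the other 4 arrays, whereas Lpl is lowest in sample 12.

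Lpl went the other way. It encodes lipoprotein lipase, which hydrolyses the triglycerides of circulating lipoproteins. Its intensity was 690.1, 1469 and 1375 in null samples 6, 9 and 11, against 717, 601 and 222 in wild-type samples 7, 10 and 12. Sample 12 was lowest, at -2.41 from the null mean on the normalized log2 scale (5.33-fold lower in that sample), and sample 10 lay at -0.77. Sample 7, at -0.26 from the null mean, lay inside the null range. Group means were 10.18 ± 0.29 in null and 9.03 ± 1.13 in wild-type samples (SD, n = 3 each). The log2 difference of 1.15 ± 0.48 (SE) moved to 0.51 without wild-type sample 12.

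Gatad2a, which encodes the p66alpha subunit of the NuRD chromatin complex, has 2 probes, and they disagreed. Probe GE102740 gave intensities of 506, 829 and 836 in null samples 6, 9 and 11, against 373, 423 and 661 in wild-type samples 7, 10 and 12. After normalization all 3 null values were above all 3 wild-type values, with means of 9.56 ± 0.12 in null and 9.03 ± 0.07 in wild-type samples (SD, n = 3 each) and a log2 difference of 0.53 ± 0.10 (SE). The brighter probe GE115971 gave 4093, 5055 and 4890.2 in null samples 6, 9 and 11, against 3898, 3553 and 6491 in wild-type samples 7, 10 and 12. Its groups overlapped, and its log2 difference was 0.04 ± 0.15 (SE), turning to -0.02 without null sample 6 and to -0.12 without wild-type sample 10. Both probes are assigned to the same RefSeq transcript accession in the array files.

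Ddx60, an interferon-induced helicase gene whose product takes part in RNA sensing in human cells, was dim in both groups. Intensities were 52.4, 59.8 and 44.7 in null samples 6, 9 and 11, against 35.1, 22.9 and 30.2 in wild-type samples 7, 10 and 12, where samples 10 and 12 were near background. The groups did not overlap. Mean log2 signal was 6.69 ± 0.12 in null and 6.31 ± 0.12 in wild-type samples (SD, n = 3 each). The log2 difference was 0.38 ± 0.11 (SE), and 0.87 to 0.88 under the 3 settings that add no offset, since the offset compresses the differences of dim probes.

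Mfap3l, named for its similarity to microfibril-associated protein 3, also had 2 dim probes that disagreed. On GE40072 the intensity was 52.7, 65.9 and 71.8 in null samples 6, 9 and 11, against 29.4, 44.2 and 56.3 in wild-type samples 7, 10 and 12. The normalized groups did not overlap, with means of 6.83 ± 0.06 in null and 6.50 ± 0.17 in wild-type samples (SD, n = 3 each), and sample 7 was near background. Its log2 difference was 0.32 ± 0.11 (SE), and 0.62 to 0.66 without an offset. GE40031 gave 39.9, 43.7 and 19.9 in null samples 6, 9 and 11, against 40.0, 37.2 and 46.6 in wild-type samples 7, 10 and 12. Its groups overlapped, its log2 difference was -0.09 ± 0.13 (SE), and the sign turned to 0.04 without null sample 11.

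Read by array, 5 of the 11 member spots had samples 10 and 12 both above the other 4 arrays. Over all spots tested 994 did so, or 4.68%. The widest gap in the ordered values set that pair above the rest for Zfp961 and Tmem59l, beside 0.532% of all spots. It was at least 1 on the log2 scale for Ccdc124 and Lpl, where it set sample 12 apart, beside 0.598% of all spots with such a gap at any place. The 5 did so under all 6 alternative ways of processing the intensities that were compared for this pattern. Read by genotype, 3 of the 11 spots did not overlap between the groups, each with the null samples above: GE102740 of Gatad2a, Ddx60, and GE40072 of Mfap3l. Ddx60 was above background in 3 null and 1 wild-type samples, and GE40072 in 3 and 2. Both were thus tested only through the null group, where they were higher, so the filter itself favours that direction for them. Fkbp8 and GE40031 of Mfap3l were tested only through the wild-type group, where their means were higher. For those the filter favours the opposite direction. Among all spots tested 9.28% did not overlap, and 4.93% had the null samples above. Under the 6 alternatives Ddx60 and GE40072 did not overlap in 6, and GE102740 in 5. As the genes were picked for differences among these arrays, nothing is read from these shares.

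**Figure D2:**
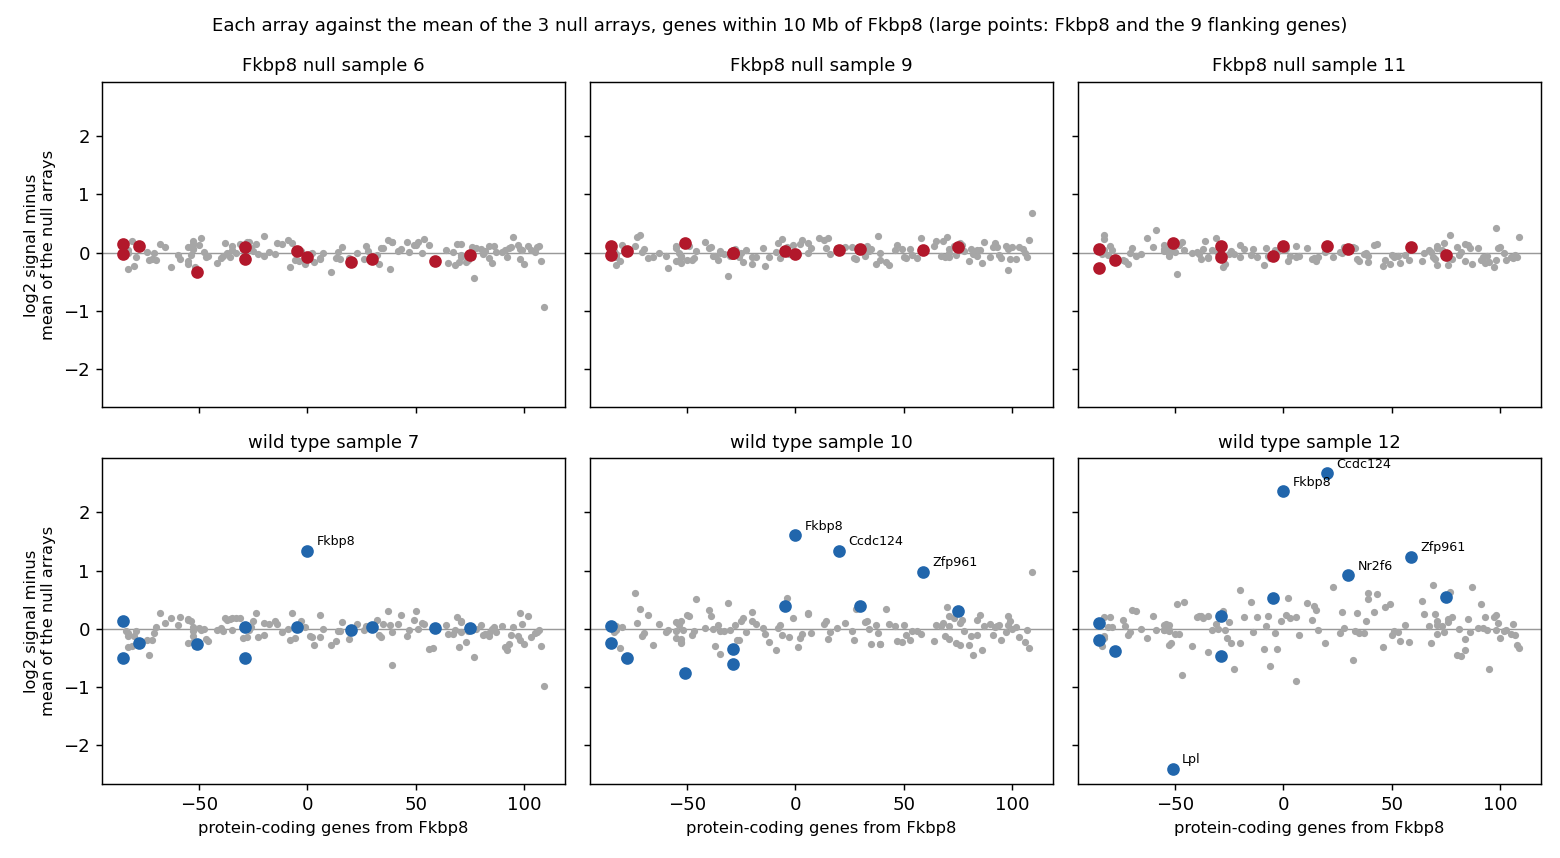
Each panel is 1 array. The horizontal axis counts protein-coding genes from Fkbp8 along chromosome 8, and the vertical axis is the normalized log2 signal minus the mean of the 3 null arrays. Large points are Fkbp8 and the 9 flanking genes, and grey points are other genes within 10 Mb. In wild-type sample 7 only Fkbp8 is labelled as lying over 0.9 from the null mean, whereas sample 10 also has Ccdc124 and Zfp961, and sample 12 also has Ccdc124, Zfp961, Nr2f6 and Lpl.

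Along the chromosome, members that were high in samples 10 and 12 lay on both sides of Fkbp8. Between Tmem59l and Ccdc124, the tested spots other than Fkbp8 had smaller log2 differences than either, the largest being -0.16 for Ifi30. Further out, Map1s (23 genes from Fkbp8) had -0.30 ± 0.17 (SE) and Mvb12a (43) -0.30 ± 0.16, about the size of the member Slc35e1 at -0.29. The 5 genes with a spot nearest to Fkbp8 on each side included Tmem59l. On the lower side, Klhl26 had a log2 difference of 0.30 ± 0.17 (SE), Rex1bd 0.13 ± 0.13 and Kxd1 -0.12 ± 0.11. On the higher side, the transcription elongation factor gene Ell had 0.07 ± 0.14, the inositol phosphate synthase gene Isyna1 -0.07 ± 0.19 and Ssbp4 0.06 ± 0.15. Both probes of Pgpep1 were near zero relative to their errors, at 0.14 ± 0.28 and -0.11 ± 0.14. Lrrc25 was not tested, being near background in all 3 null samples and in 1 of the 3 wild-type samples. The groups overlapped for each of these spots.

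Over the whole stretch within 10 Mb, 153 spots of 135 genes were tested. Without Fkbp8 and the 9 genes, 141 spots remained, with a median log2 difference of -0.002 beside 0.002 over all spots tested. Of the 141, 68 were higher and 73 lower in null samples, and 3 had an unadjusted limma p under 0.05 (2.13%), beside 3.08% of all spots. Of the 3, 2 were higher in null samples (1.75% of all spots were) and 1 was lower (1.33% of all spots were). These 141 spots are what was left after the genes with the clearest differences were taken out. The groups did not overlap for 11 of them (7.80%), beside 9.28% of all spots. In 6 of these the null samples were above and in 5 below, where 4.35% of all spots had them below. Samples 10 and 12 were both above the other 4 arrays in 13 (9.22%), beside 5.06% on the rest of chromosome 8 and 4.95% on other chromosomes. The margin of these 13 was 0.41 on the log2 scale for D130040H23Rik, 0.15 for Bst2 and 0.12 each for Zfp869 and Zfp963, and at most 0.05 for the others. Among the members it was 1.23 for Ccdc124, 0.89 for Zfp961, 0.36 for Tmem59l, 0.33 for Nr2f6 and 0.22 for Slc35e1. The margin of D130040H23Rik was thus above those of Tmem59l, Nr2f6 and Slc35e1.

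Wild-type sample 12 had a larger typical distance from the null mean in this stretch than elsewhere. Its median absolute log2 difference from the null mean was 0.18 over the 141 spots, against 0.14 on the rest of chromosome 8 and 0.14 on other chromosomes. Sample 7 had 0.13 over the 141 spots, against 0.12 on the rest of chromosome 8 and 0.13 elsewhere. For sample 10 the value was 0.12 over the 141 spots, against 0.13 and 0.12. No test was made of these medians, which were chosen after the values were seen.

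**Figure D3:**
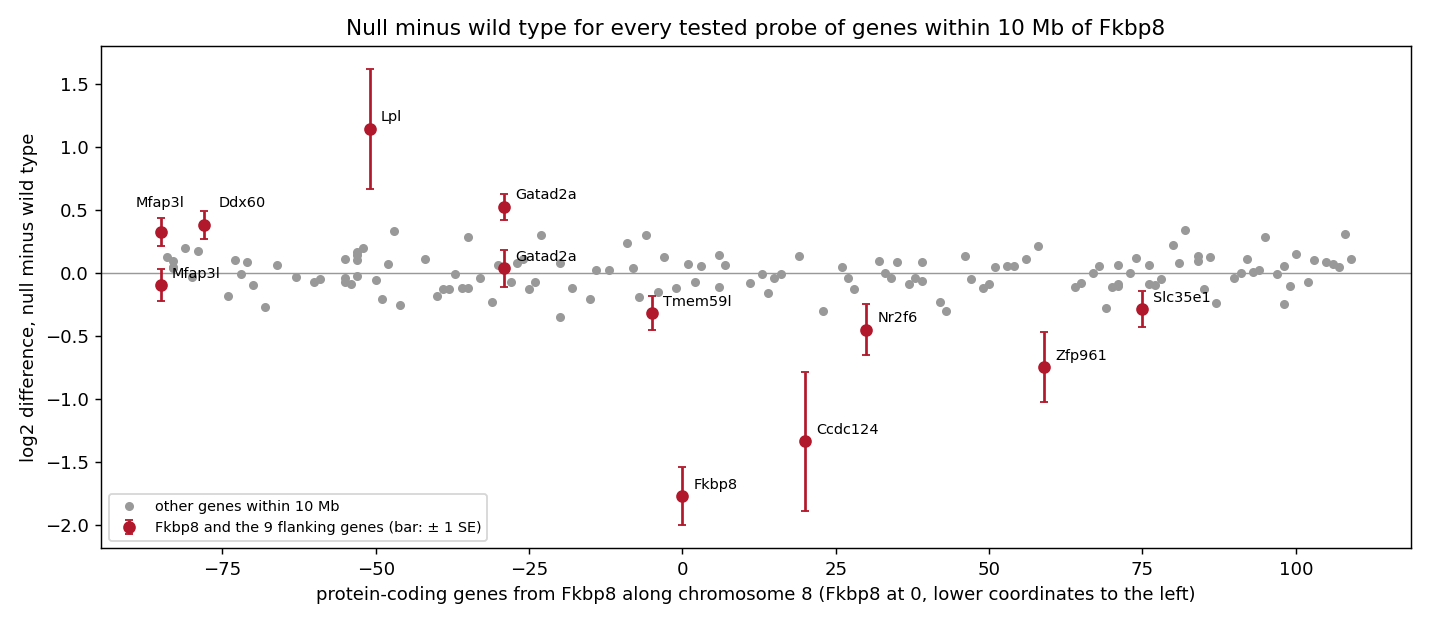
Log2 difference, null minus wild type (vertical axis), of tested spots within 10 Mb of Fkbp8, by the number of protein-coding genes from Fkbp8 (horizontal axis). Tested spots of genes without a place in that order are not shown. Red points are Fkbp8 and the 9 flanking genes with 1 SE as a bar, and grey points are other genes. Fkbp8 at -1.77 and Ccdc124 at -1.33 are lowest, and Lpl at 1.15 is highest.

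Other genes of the stretch whose groups did not overlap had smaller differences. Among those with the null samples above, Hhip, which binds and restrains hedgehog proteins, had a log2 difference of 0.31 ± 0.12 (SE) and Rfxank, a transcription factor subunit for major histocompatibility class II genes, 0.30 ± 0.17. Among those with the null samples below, Trim60 had -0.27 ± 0.10, the link protein gene Hapln4 -0.13 ± 0.09 and Tmem161a -0.12 ± 0.09. At an adjusted p under 0.05, limma called 1 spot of the whole array (0.00471%), which is none of these genes.

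The genes most like each member over the 6 arrays were found by Pearson's r of normalized log2 signal, as a description over points that share the same 6 RNA samples. For Ccdc124 the most alike genes of the stretch were Nr2f6 (r = 0.992) and Slc35e1 (r = 0.980). Nr2f6 had Ccdc124 and Slc35e1 (r = 0.977), and Slc35e1 had Ccdc124 and Nr2f6. Zfp961 had Ccdc124 (r = 0.969) and Tmem59l (r = 0.965), and Tmem59l had Slc35e1 (r = 0.967) and Zfp961. The 5 genes that were high in samples 10 and 12 were thus each other's closest matches among the genes within 10 Mb. They were picked for differences among these same arrays, so nothing is read from these matches.

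Genes on other chromosomes reached similar values, but the search outside the stretch covered far more spots (153 of the 21243 tested lay within it). Pearson's r also leaves out the size of a change. Over the 6 arrays Ncaph2 ran from 9.59 to 9.90 on the log2 scale, and Ccdc124 from 7.90 to 10.74. Ncaph2, a condensin subunit gene, had r = 0.989 with Ccdc124, 0.986 with Nr2f6 and 0.996 with Slc35e1, while Tex264 had 0.989 with Zfp961 and Aldh16a1 had 0.994 with Tmem59l. Lpl was most like Hpf1 (r = 0.964) and Rfxank (r = 0.943) within 10 Mb and Zfp599 elsewhere (r = 0.998). Ddx60 was most like Klhl2 (r = 0.918) and Lpar2 (r = 0.899) within 10 Mb. On its brighter probe Gatad2a was most like Abce1 (r = 0.953) and Cope (r = 0.926), with Dock6 elsewhere (r = 0.998). For Mfap3l, on GE40072, the closest were the GE102740 probe of Gatad2a (r = 0.842) and Csgalnact1 (r = 0.780), with Ccdc186 elsewhere (r = 0.995). Fkbp8 was most like Hapln4 (r = 0.885) and Tmem59l (r = 0.864), with Higd2a elsewhere (r = 0.997).

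Relatives and partners of the 9 genes were read from lists, and no member of any list passed an adjusted p of 0.05. Each list includes the flanking gene it was made for, which was chosen for its differences and enters the counts and medians below. Of 14 tested NuRD genes, 5 were higher and 9 lower in null samples, with a median log2 difference of -0.02, beside 0.002 over all spots. Gatad2b, the paralogue of Gatad2a, had 0.49 ± 0.23 (SE) and the subunit Mta2 -0.40 ± 0.19. Of 10 genes that handle lipoprotein lipase and its lipoproteins, 4 were higher and 6 lower, with a median of -0.06. Beside Lpl, the lipoprotein receptor gene Vldlr had a log2 difference of 0.37 ± 0.10, and its groups did not overlap.

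Among the 3 NR2F genes 1 was higher and 2 were lower, with a median of -0.08. Nr2f2 had -0.08 ± 0.15 and Nr2f1 0.06 ± 0.23. Of the 18 interferon response genes with a spot 7 were tested, 5 higher and 2 lower, with a median of 0.06. Bst2, an interferon-induced antiviral membrane protein, had -0.23 ± 0.12, and 5 genes of the list were near background on every array. The 3 SLC35E genes had 1 higher and 2 lower and a median of -0.06, with Slc35e3 at 0.17 ± 0.10. Tmem59 had 0.03 ± 0.09 beside its paralogue Tmem59l. Of 5 genes named for microfibril-associated proteins 4 were higher and 1 lower, with a median of 0.05 and Mfap3 at 0.12 ± 0.18. The 9 tested Zfp genes within 10 Mb had 5 higher and 4 lower and a median of 0.11, with Zfp930, 47 genes from Fkbp8 on the side of lower coordinates, at 0.34 ± 0.19.

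The wild-type samples also differed from each other in markers of tissue and sex. Of the 10 posterior markers, 6 were lowest in sample 10, among them T and Cdx2, and Sox2 was highest there. T had a normalized log2 signal of 7.99 in sample 10 against 9.88 to 11.11 on the other 5 arrays, and Cdx2 had 7.81 against 9.13 to 10.54. Hoxc9, Hoxa9 and Cdx1 lay within the range of the other arrays in sample 10. The summed software-normalized intensity of all 10 posterior markers, to which the brighter genes add most, was 78.0 to 104 in null samples, against 109, 48.3 and 105 in wild-type samples 7, 10 and 12. On 1 of its 2 probes Xist was bright in sample 10 alone, at 10.35 on the log2 scale against 5.98 to 6.53 on the other arrays, and the Y-linked Eif2s3y was at 6.16 there against 8.63 to 8.90. The Y-linked Ddx3y and Uty were also lowest in sample 10, whereas Kdm5d was at 7.78 in sample 10 and 7.79 in sample 12, against 8.28 to 8.67 on the other 4 arrays. All 7 tested neuronal markers had positive log2 differences, and their summed intensity was 8.79 to 14.97 in null samples, against 7.00, 15.53 and 7.31 in wild-type samples 7, 10 and 12. Summed blood markers, 5 with a spot, ran from 155 to 467 in null samples, against 202, 689 and 343 in wild-type samples 7, 10 and 12. Summed heart markers, also 5 with a spot, ran from 7.23 to 9.37 in null samples, against 9.13 to 11.86 in wild-type samples, with Myh6 and Tnnt2 near background on all 6 arrays. No macrophage marker was tested, and Ptprc was near background throughout.

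Sample 12, which had the highest signal of the 5 flanking genes, did not have the low T and Cdx2 or the Xist signal of sample 10, and its Kdm5d was close to that of sample 10. Without sample 10 the log2 difference was -1.33 for Ccdc124, -0.63 for Zfp961, -0.47 for Nr2f6, -0.28 for Tmem59l, -0.28 for Slc35e1 and 1.34 for Lpl. The part of tissue composition, sex and litter in these differences was not tested.

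**Figure D4:**
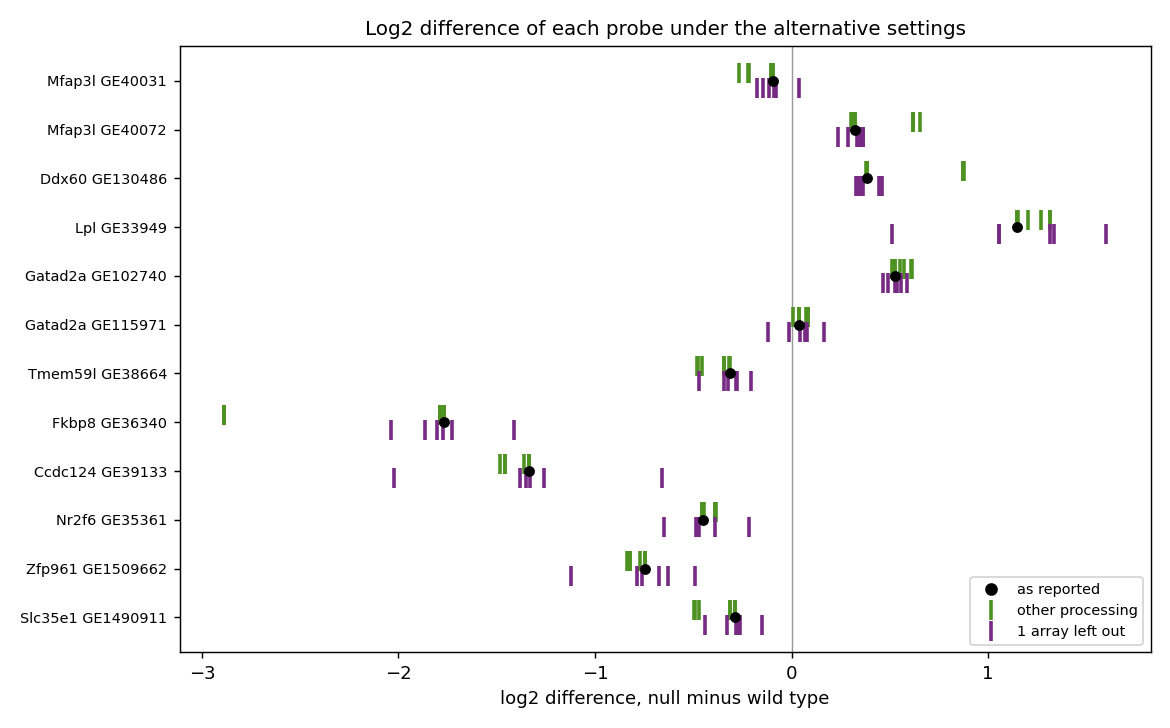
Log2 difference, null minus wild type (horizontal axis), of each probe of Fkbp8 and the 9 flanking genes (vertical axis) as reported (black), under other ways of processing (green) and with 1 array left out (purple). Ccdc124 runs from -2.02 to -0.66 and Lpl from 0.51 to 1.60, and the signs of GE115971 of Gatad2a and GE40031 of Mfap3l turn.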

How the data were processed

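RNA from 6 samples, 3 Fkbp8 null and 3 wild type by their labels, was amplified, labelled with biotin and measured on CodeLink Mouse Whole Genome arrays with 1 colour. The deposited raw intensity of each spot comes from CodeLink Expression Analysis 4.1, per the file headers, after local background had been subtracted, which left 38 to 67 spots of each array below 0. The authors' value table is that software's normalized intensity times 1 factor per array (1.01 to 1.02 as measured here). All columns of that table were used. Per array 62.8% to 68.4% of the spots were flagged neither near background nor defective, and the ratio of the median spot to the negative controls ran from 2.33 to 3.80.

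Values below 0 were set to 0 and 50 was added as an offset. The log2 values, computed here from the deposited intensities, were then quantile normalized. Spots flagged irregular, contaminated or defective were left out. A spot was tested if no array of at least 1 group flagged it as near background, with at least 2 values per group. Differences are null minus wild type, fitted with limma 3.58.1 (lmFit, eBayes; R 4.3.3). Its two-sided p-values were adjusted over all 21243 spots by Benjamini and Hochberg's method, and the fit was tested on simulated data. The alternatives were other floors, normalizations, value sources and filters, and leaving out each sample.

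Names came from the platform annotation (1 symbol for 21615 spots, several for 681, none for 12671, of which 499 were named by accession), updated through the RefSeq table for GRCm38.p6. That table also gave the gene order and the positions that set the stretch within 10 Mb, the rest of chromosome 8 and other chromosomes. The promoter table matched 9 of the 10 genes. The members and lists were chosen with earlier results of these data known. Named are Fkbp8 and its 9 neighbours, the 5 genes on each side of it, the 3 largest differences each way without overlap within 10 Mb, the most similar genes, and the list members past the threshold or the 2 with the largest difference. Some genes that this rule names are not reported here. The comparison of samples 10 and 12 with the other 4, the named marker genes, and D130040H23Rik, Zfp869 and Zfp963 were chosen after their values were seen.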

Additional observations from a re-analysis of the deposited data

How the results depend on the processing

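The differences of Fkbp8 and the 11 member spots were recomputed under 13 settings. Of 156 values, 141 moved by less than the spread between replicates, 12 moved by more without a change of sign, and 3 reversed. The setting without the filter on dim probes cannot change these differences, because spots were normalized before that filter. Its values for the 12 probes are among the 141 by construction. For GE115971 of Gatad2a (0.04 as reported) the sign reversed to -0.02 without null sample 6 and -0.12 without wild-type sample 10, in a range of -0.12 to 0.16 with 1 sample left out. For GE40031 of Mfap3l (-0.09 as reported) it reversed to 0.036 without null sample 11, in a range of -0.18 to 0.036. The cause was not tested. The count of spots past an adjusted p of 0.05, 1 as reported, was 0 with intensities floored at 1, with median scaling or with cyclic loess, and 2 with the scanner software's normalized intensity, the authors' value table or every spot kept. With 1 sample left out it ran from 0 (without null sample 6 or 9) to 1. The count with an unadjusted p under 0.05, 654 as reported, was 292 with median scaling and 1096 without the filter on dim probes, where more spots were tested. It ran from 392 without null sample 9 to 1355 without wild-type sample 10. Within 10 Mb of Fkbp8 that count was 11, or 7.19% of the spots tested there, beside 3.08% of all spots. Only 3 of these lay outside Fkbp8 and the 9 genes, and the 9 were picked for their differences. The count in this stretch ran from 4 without null sample 9 (2.61%, beside 1.84% of all spots) to 18 without wild-type sample 7 (11.8%, beside 3.39%). It was 6 without null sample 11 (3.85%, beside 3.17%) and 7 without wild-type sample 12 (4.61%, beside 3.34%). The median difference within 10 Mb, -0.005 as reported, ran from -0.03 to 0.02 with 1 sample left out. No paired analysis was possible because the groups share no replicate number. Slc35e1, Tmem59l, Ddx60 and both Mfap3l probes were dim, so their differences rest on signals close to background.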
